A study of Rattus norvegicus with 8 samples.

Results

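The genes of transforming growth factor β (TGFβ), bone morphogenetic protein (BMP) and activin signaling were compared between the atria and the ventricles of the normal rat heart. The set was chosen by gene symbol and holds 47 genes, which are ligands, latency proteins, secreted antagonists, receptors, SMAD transducers and ID target genes. Of these, 44 were read by 76 probe sets of the array, out of 14217 genes with a single symbol, and Bmp10, Tgfbr2 and Acvr1b, for which no probe set carries the symbol, were not analysed here. Where a gene had several probe sets, the one with the highest mean over the 8 arrays represented it. The tissues were the atrial appendage (atrium) and the ventricular free wall (ventricle) of 13 normal, untreated male Sprague Dawley rats weighing 225 to 275 g, both taken from the left side as the methods have it. The age of the rats is not given in the sources used here. Each tissue was split into 4 pools, each read on 1 array, and the sources do not tell which rats share a pool. The arrays therefore read whole tissue with all its cell types, and p-values measure the spread between pools, not between animals.

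Ligands of this family are secreted dimers that bring together type I and type II receptor kinases on the cell surface. TGFβ and activins signal mainly through SMAD2 and SMAD3, BMPs through SMAD1, SMAD5 and SMAD9, and both groups share SMAD4, while SMAD6 and SMAD7 limit the signal. TGFβ is stored in the matrix in a latent form bound to latent TGFβ binding proteins (LTBPs), and antagonists such as follistatin, noggin, chordin and gremlin bind activins or BMPs before they reach a receptor. In the heart the pathway is known for its part in valve and chamber formation and in fibrosis.

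Values are log2 signal intensities, so that a difference of 1 is a doubling, and differences are the atrial mean minus the ventricular mean. The test was limma, a linear model fitted to the 31042 probe sets, whose p-values were adjusted together after Benjamini and Hochberg, and a gene was called when the adjusted p was under 0.05. The stricter study thresholds are an adjusted p under 0.0001 with a fold of at least 1.8. Means under a log2 of 4, where 37.8% of the probe sets lie, were treated as close to the low end of the scale. A fold is a lower bound if the lower mean falls there, and none is given if both do.

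The labels of both tissues were checked against their muscle markers. All 7 atrial markers, Nppa, Myl7, Myl4 and Sln among them, were higher in the atria and all 6 ventricular markers, Myl2, Myl3 and Irx4 among them, were lower. The atrial pools were not alike, since the summed linear intensity of the ventricular markers was 3094 and 4682 in atrial replicates 1 and 4 against 813 and 869 in replicates 2 and 3. It was 23585 to 24995 in the ventricles. The count of genes called was therefore also obtained without these replicates.

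Of the 44 members, 14 were higher in the atria and 7 lower, and 23 did not pass the test. The share called, 47.7%, lies close to the 45% of all 14217 genes called in either direction. By direction, 31.8% of the members were higher against a background of 22.5%, and 15.9% were lower against 22.5%. At the study thresholds 7 members passed at their brightest probe sets, Bmp5, Bmp6, Ltbp1 and Id4 higher and Tgfb1, Inha and Id1 lower in the atria. They are 15.9% of the members, against 5.89% of all genes (3.37% higher and 2.53% lower). Tgfb2 is not counted among them, but passed these thresholds at its other annotated probe set. The members were chosen with earlier results of these data known, so shares above those of all genes are not independent of them. Of the 35 members with a mean of at least 4 in a tissue, 57.1% were called, against 53.4% of all such genes. The arrays of the tissues did not overlap in 21 members, 47.7% against 44.1% of all genes. The median difference was 0.03 over the members and -0.04 over all genes. Without atrial replicates 1 and 4, 13 members were higher, 9 were lower and 7 passed the study thresholds. Both means lay under a log2 of 4 in 9 members, Bmp3, Bmp7, Gdf10, Gdf15, Mstn, Inhbb, Grem1, Nog and Chrd.

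**Figure D1:**
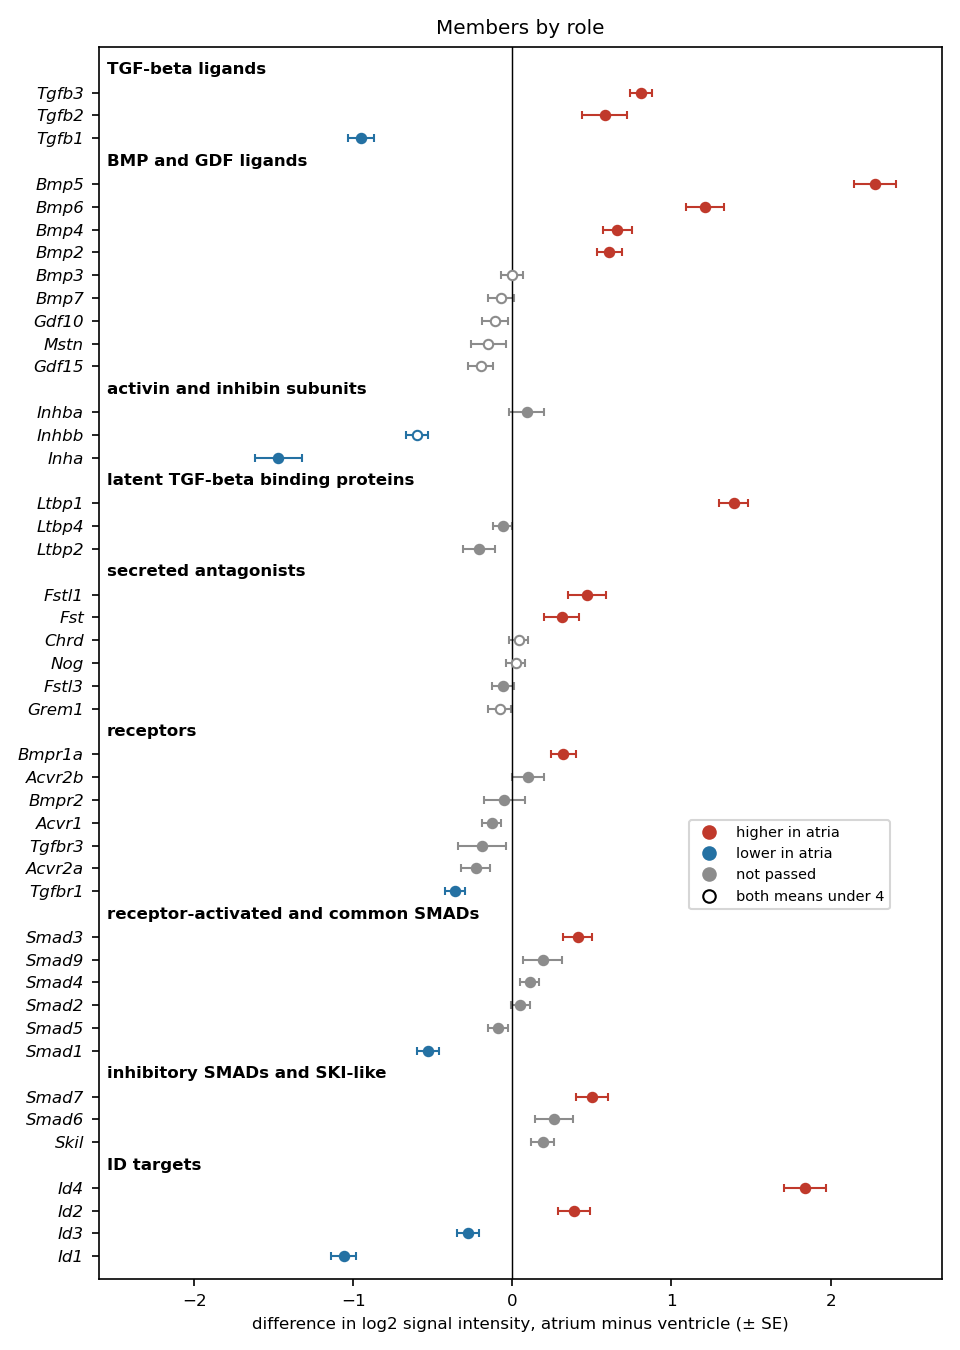
Difference in log2 signal intensity, atrium minus ventricle, of the 44 members by role, with standard errors from limma. Red points are the 14 called higher in the atria, blue the 7 called lower, grey the 23 that did not pass, and open points are genes with both means under 4. Bmp5 lies farthest to the right at 2.28 and Inha farthest to the left at -1.47.

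The 3 TGFβ ligands did not differ in the same direction. Tgfb2 and Tgfb3 were higher in the atria and Tgfb1, the isoform best known for fibrosis and immune regulation, was lower. In atrial replicates 1 to 4 Tgfb1 read 5.30, 5.50, 5.39 and 5.60, and in the ventricular ones 6.37, 6.49, 6.32 and 6.42. Every ventricular pool lay above every atrial pool, and Tgfb1 was 1.94 fold higher in the ventricles (difference -0.95, standard error 0.08, adjusted p = 4.4e-06 from limma). Tgfb3 read 8.30, 8.17, 8.26 and 8.09 in the atria and 7.46, 7.38, 7.43 and 7.28 in the ventricles. It was 1.76 fold higher in the atria (adjusted p = 6.7e-06 from limma), just under the study fold, with no overlap between the tissues.

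Tgfb2, an isoform required for the formation of heart valves and septa, differed by an amount that depended on the probe set. The brightest read 6.46, 6.96, 6.76 and 6.88 in the atria and 6.30, 6.12, 6.44 and 5.86 in the ventricles, and differed by 0.58 (standard error 0.14, adjusted p = 0.0062 from limma). The lowest atrial pool lay only just above the highest ventricular one. The other annotated probe set read 6.70, 6.73, 6.63 and 6.42 against 4.52, 4.82, 4.76 and 4.94, a difference of 1.86 with wide separation of the tissues (adjusted p = 2.4e-07). At 3.64 fold it passed the study thresholds, which the brightest did not. Additional file 1 of the paper names a further 2 probe sets Tgfb2, which the platform annotation leaves unnamed. These 2 differed by 1.96 and 1.76 and also passed the study thresholds, at 3.89 and at least 3.39 fold. Since that file lists probe sets found different on these arrays, they are not independent of it.

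The upstream sequence of Tgfb1 and Tgfb2 is shown because these 2 ligands of one subfamily differed in opposite directions between the tissues. Each run is the 250 bases before the gene start in RefSeq, with CpG dinucleotides in capitals. The Tgfb1 window holds 11 CpG dinucleotides and the Tgfb2 window 19, against a median of 5 over 33465 rat promoters, and that of Tgfb3, not shown, holds 5.
Tgfb1, GRCr8 chr1:90324062-90324311, plus strand: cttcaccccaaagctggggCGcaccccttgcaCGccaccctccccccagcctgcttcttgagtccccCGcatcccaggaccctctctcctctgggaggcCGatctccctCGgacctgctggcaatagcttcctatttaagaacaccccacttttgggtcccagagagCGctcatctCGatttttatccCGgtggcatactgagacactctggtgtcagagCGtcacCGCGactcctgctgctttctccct
Tgfb2, GRCr8 chr13:100792686-100792935, minus strand: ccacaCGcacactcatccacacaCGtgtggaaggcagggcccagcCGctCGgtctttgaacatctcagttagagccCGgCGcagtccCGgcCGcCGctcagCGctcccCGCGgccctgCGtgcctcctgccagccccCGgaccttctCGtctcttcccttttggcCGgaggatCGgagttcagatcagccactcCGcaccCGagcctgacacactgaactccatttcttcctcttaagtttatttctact

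Of the latent TGFβ binding proteins, which tie latent TGFβ to the extracellular matrix, Ltbp1 was higher in the atria. It read 8.18, 7.93, 8.12 and 8.07 in the atrial pools and 6.74, 6.42, 6.74 and 6.84 in the ventricular pools. The tissues were separated by more than the whole spread within either, with a fold of 2.62 (difference 1.39, standard error 0.09, adjusted p = 1.3e-06 from limma). Ltbp2 and Ltbp4 did not pass the test, with differences of -0.21 (adjusted p = 0.12) and -0.06 (adjusted p = 0.50). Ltbp2 passed, at -0.29 (adjusted p = 0.014), without atrial replicate 4. Ltbp3, which is no member and was singled out after its values had been seen, was 1.55 fold higher in the atria.

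Among the 9 measured BMP and GDF ligands, 4 were higher in the atria and none lower, and 5 did not pass, all 5 of them with both means under 4. The share called, 44.4%, is near the 45% of all genes, and the other roles hold 3 to 7 measured genes each. Bmp5, a ligand of the BMP7 subgroup, read 5.35, 5.48, 5.48 and 4.91 in the atria and 3.10, 3.16, 2.99 and 2.84 in the ventricles. Atrial replicate 4 was the lowest atrial pool and still lay well above every ventricular pool. Of the 44 members Bmp5 differed most, by 2.28 (standard error 0.13, adjusted p = 2.9e-07 from limma). Its fold of 4.87 is a lower bound, as the ventricular mean of 3.02 lies near the low end. The weaker Bmp5 probe set differed by 1.17 in the same direction (adjusted p = 3.7e-05).

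Bmp6, the ligand that controls the iron hormone hepcidin in the liver, read 8.04, 7.44, 7.62 and 7.50 in the atria and 6.33, 6.44, 6.55 and 6.47 in the ventricles. Atrial replicate 1 was the highest pool, and all 4 atrial pools lay above the ventricular ones. The fold was 2.31 (difference 1.21, standard error 0.12, adjusted p = 2.0e-05 from limma). A second Bmp6 probe set gave a difference of 1.48, while the other 2 of this gene, at 0.03 (adjusted p = 0.79) and -0.04 (adjusted p = 0.75), did not pass the test. The probe sets of Bmp6 thus fall into 2 that separate the tissues and 2 whose tissues overlap.

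Bmp4 and Bmp2, closely related ligands of early heart development, were higher in the atria to a smaller degree. Bmp4 read 6.94, 6.91, 6.66 and 6.67 in the atria and 6.12, 6.17, 6.28 and 5.97 in the ventricles, a fold of 1.58 (adjusted p = 2.1e-04 from limma). Bmp2 read 5.62, 5.66, 5.56 and 5.61 against 4.84, 5.02, 5.19 and 4.95, a fold of 1.53 (adjusted p = 1.1e-04). Neither gene showed overlap between the tissues. A dimmer Bmp2 probe set, with both means under 4, did not pass the test (adjusted p = 0.088). Bmp3, Bmp7, Gdf10, the stress-induced Gdf15 and myostatin (Mstn), a brake on muscle growth, had differences between -0.20 and 0.00, and their adjusted p-values from limma lay between 0.062 and 0.97.

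Of the 3 activin and inhibin subunits, 2 were lower in the atria and none was higher (66.7% called, against 45% of all genes). Inhibin α (Inha), which pairs with a β subunit to form inhibin, an antagonist of activin, read 7.09, 6.90, 6.44 and 7.11 in the atria and 8.55, 8.20, 8.47 and 8.19 in the ventricles. Replicate 3 was the lowest of the atrial pools, and no atrial pool reached the ventricular range. Inha was 2.76 fold higher in the ventricles (difference -1.47, standard error 0.15, adjusted p = 2.0e-05 from limma). Inhbb, the subunit of activin B, read 3.41, 3.34, 3.17 and 3.33 against 3.88, 3.93, 3.99 and 3.84. It was called lower in the atria by -0.60 (adjusted p = 6.0e-05), but with both means near the low end the size of that difference is not set. Inhba, the subunit of activin A, did not pass the test (0.09, adjusted p = 0.55), and its weaker probe set differed by -0.26 (adjusted p = 0.036).

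**Figure D2:**
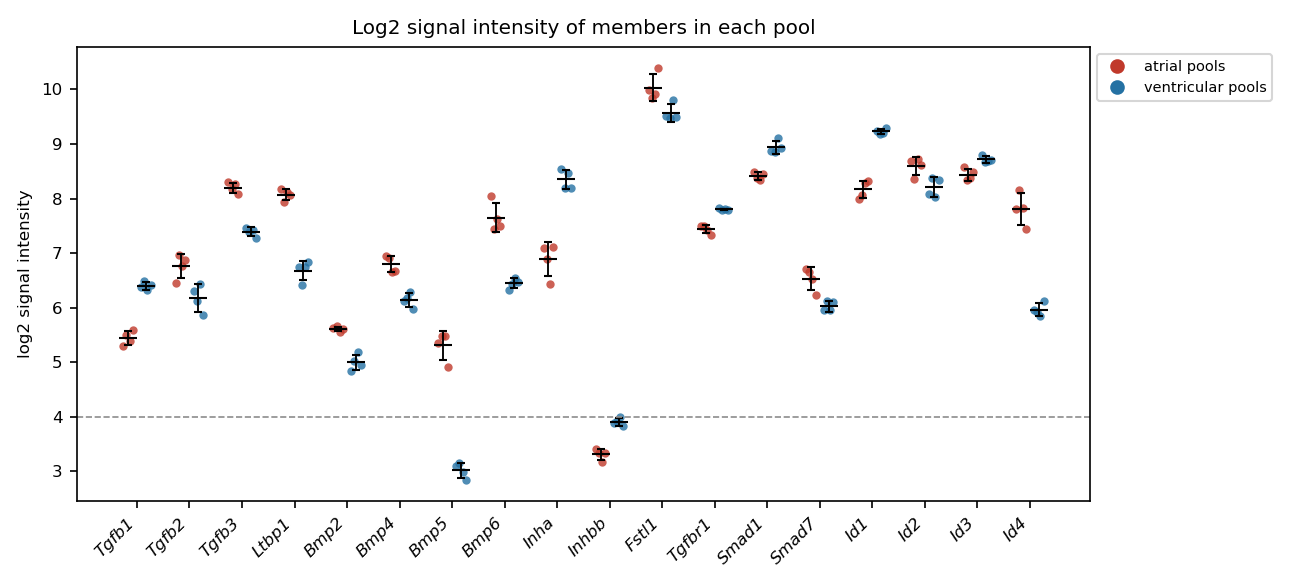
Log2 signal intensity of 18 members in each atrial pool (red) and ventricular pool (blue), with horizontal bars for the mean and error bars for the SD of 4 pools. The dashed line marks a log2 of 4. Tgfb1, Inha, Id1 and Smad1 sit higher in the ventricles and Bmp5, Bmp6, Ltbp1 and Id4 higher in the atria, without overlap, whereas the pools of Id2 overlap.

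Of 6 secreted antagonists, 2 were higher in the atria and none lower, and 4 did not pass (33.3% called, against 45% of all genes). Follistatin-like 1 (Fstl1), a secreted glycoprotein of stromal cells, read 9.99, 9.85, 9.91 and 10.40 in the atria and 9.51, 9.47, 9.80 and 9.49 in the ventricles. Atrial replicate 4 and ventricular replicate 3 were the highest of their tissues, and the lowest atrial pool, at 9.85, was close to the latter. The difference was 0.47 (standard error 0.12, adjusted p = 0.011 from limma), and both other Fstl1 probe sets were also higher in the atria, by 0.66 and 0.57. The summed intensity of 9 fibroblast markers was 15570 to 17669 in the atria, highest in replicate 4, and 12463 to 14218 in the ventricles, highest in replicate 3, and 7 of the 9 were higher in the atria. Of these markers Col1a1, Col1a2, Col3a1 and Dcn are also among the other pathway genes. The part of these cells in the difference was not tested. In such bulk tissue, fewer cells of a type and less RNA per cell cannot be told apart.

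Follistatin (Fst), which binds activins, was called higher in the atria by 0.31 (adjusted p = 0.036 from limma). Its ventricular mean of 3.72 is near the low end and its pools overlapped, at 3.85 to 4.32 in the atria and 3.60 to 3.89 in the ventricles. The call was lost when any of 5 of the 8 arrays was left out, with an adjusted p of 0.071 without atrial replicate 1 and 0.059 without atrial replicate 4. Without ventricular replicate 1, 2 or 4 it was 0.065, 0.095 and 0.087, respectively. Fstl3 had a difference of -0.06 (adjusted p = 0.57). The BMP antagonists gremlin (Grem1), noggin (Nog) and chordin (Chrd) had both means under 4 and differences between -0.08 and 0.04.

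Of 7 measured receptors, 1 was higher in the atria and 1 lower, and 5 did not pass (28.6% called, against 45% of all genes). The type I receptor of TGFβ, Tgfbr1, read 7.50, 7.50, 7.43 and 7.33 in the atria and 7.82, 7.79, 7.81 and 7.79 in the ventricles. The ventricular pools were nearly identical and all above the atrial ones, a fold of 1.29 (difference -0.36, standard error 0.06, adjusted p = 7.9e-04 from limma), and the weaker Tgfbr1 probe set gave the same difference of -0.36. Bmpr1a, a type I receptor of BMPs, was 1.25 fold higher in the atria (adjusted p = 0.013), with 6.67 to 6.84 in the atria and 6.32 to 6.65 in the ventricles.

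The other receptors, Tgfbr3, the co-receptor betaglycan, Bmpr2, Acvr1, Acvr2a and Acvr2b, had differences between -0.23 and 0.10 at their brightest probe sets. A weaker probe set of the type II BMP receptor Bmpr2, with an atrial mean of 3.86, was called lower in the atria by -0.30 (adjusted p = 0.015 from limma). Acvr2a, a type II receptor of activins, was the nearest to a call, at -0.23 (adjusted p = 0.058 from limma), without overlap of the tissues. It passed without atrial replicate 4, at -0.27 (adjusted p = 0.030), and without atrial replicates 1 and 4, at -0.34 (adjusted p = 0.018). Acvr1 had differences of -0.13, -0.11 and -0.11 at its 3 probe sets, none of which passed the test.

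Among the SMADs that carry the signal, the BMP transducer Smad1 was lower and the TGFβ and activin transducer Smad3 higher in the atria. Smad1 read 8.48, 8.38, 8.34 and 8.45 in the atria and 8.88, 8.85, 9.11 and 8.92 in the ventricles. The tissues did not overlap, and the fold was 1.44 in favour of the ventricles (difference -0.53, standard error 0.07, adjusted p = 2.2e-04 from limma), with -0.60 at the weaker probe set. Smad3 read 6.94, 7.14, 6.97 and 6.84 against 6.52, 6.81, 6.43 and 6.50, a fold of 1.33 (adjusted p = 0.0063). The atrial replicate 4 and the ventricular replicate 2 lay next to each other, at 6.84 and 6.81.

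Smad2, Smad4, Smad5 and Smad9 did not pass the test, with differences of 0.05, 0.11, -0.09 and 0.19 at their brightest probe sets. Weaker probe sets of the common partner Smad4, at 0.29 (adjusted p = 0.0046 from limma), and of Smad5, at 0.36 (adjusted p = 0.0028), were higher in the atria. Further Smad5 probe sets, at -0.11 and 0.22, did not pass. Smad7, an inhibitory SMAD that is itself induced by the pathway, read 6.70, 6.66, 6.53 and 6.23 in the atria and 5.95, 6.13, 5.95 and 6.10 in the ventricles. Replicate 4 was the lowest atrial pool, next to the ventricular range, and the fold was 1.41 (difference 0.50, standard error 0.10, adjusted p = 0.0030). The 2 dimmer Smad7 probe sets, at 0.02 and 0.33, did not pass.

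Smad6, the inhibitory SMAD of the BMP branch, read 6.41 in atrial replicate 1, 5.88 to 5.92 in the other atrial pools and 5.60 to 5.84 in the ventricles. The atrial pools thus lay above the ventricular ones, but the difference of 0.26 did not pass the test (adjusted p = 0.11 from limma). A weaker probe set was higher in the atria by 0.51 (adjusted p = 0.016). The dimmest Smad6 probe sets, at -0.17 and -0.21 with both means under 4, did not pass. Skil, the SKI-like repressor SnoN, which binds SMADs, had a difference of 0.19 (adjusted p = 0.061). It passed without atrial replicate 4 (0.23, adjusted p = 0.030) and without atrial replicates 1 and 4 (0.27, adjusted p = 0.035).

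The ID genes encode inhibitors of basic helix-loop-helix transcription factors and are well-known targets of BMP signaling. At their brightest probe sets all 4 passed the test, Id4 and Id2 higher and Id1 and Id3 lower in the atria. Of all genes 45% passed. Id4 read 7.81, 8.16, 7.83 and 7.44 in the atria and 5.95, 5.92, 5.85 and 6.13 in the ventricles. Its lowest atrial pool, replicate 4, was far above every ventricular pool, and the fold was 3.59 (difference 1.84, standard error 0.13, adjusted p = 1.7e-06 from limma). The weaker Id4 probe sets were also higher in the atria, by 1.01, 0.41 and 0.52, the last with both means under 4.

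Id1 read 7.99, 8.07, 8.29 and 8.32 in the atria and 9.24, 9.19, 9.20 and 9.30 in the ventricles. The ventricular pools were tightly grouped above all atrial pools, with a fold of 2.09 (difference -1.06, standard error 0.08, adjusted p = 3.4e-06 from limma). Id3, which is often expressed together with Id1 in endothelial cells, read 8.57, 8.34, 8.37 and 8.49 against 8.80, 8.67, 8.69 and 8.71, a fold of 1.21 without overlap (adjusted p = 0.0092). Id2 read 8.69, 8.36, 8.73 and 8.61 in the atria and 8.09, 8.37, 8.02 and 8.34 in the ventricles. Atrial replicate 2 fell inside the ventricular range, and the difference of 0.39 (adjusted p = 0.013) was lost without atrial replicates 1 and 4 (0.34, adjusted p = 0.072). The weaker Id2 probe set also differed by 0.39 but did not pass the test (adjusted p = 0.071), and its pools overlapped.

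The upstream sequences of Id1 and Id4, the ID genes with the largest differences in each direction, are shown in the same way, with CpG dinucleotides in capitals. The Id1 window holds 5 CpG dinucleotides and has a TATAAA motif from base -59 to -54 before the gene start, whereas the Id4 window holds 28 and has no such motif. Id2 and Id3, not shown, hold 19 each and no TATAAA, which was found in 12.9% of 33465 rat promoters of this length, read on both strands as TATAAA or TTTATA. The SMAD binding element, CAGAC or on the other strand GTCTG, was found in 42.9% of all promoters. A GC-rich motif also bound by SMADs, GGCGCC on either strand, was found in 8.7%. Neither is in the windows of the 4 ID genes or of the 3 TGFβ ligands, which says only that these letters are absent from the 250 bases searched.
Id1, GRCr8 chr3:161671314-161671563, plus strand: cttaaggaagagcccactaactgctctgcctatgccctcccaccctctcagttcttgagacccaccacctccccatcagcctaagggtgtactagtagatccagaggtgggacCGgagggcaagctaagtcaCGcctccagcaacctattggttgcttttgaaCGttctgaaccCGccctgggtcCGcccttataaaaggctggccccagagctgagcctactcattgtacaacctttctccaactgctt
Id4, GRCr8 chr17:16598294-16598543, minus strand: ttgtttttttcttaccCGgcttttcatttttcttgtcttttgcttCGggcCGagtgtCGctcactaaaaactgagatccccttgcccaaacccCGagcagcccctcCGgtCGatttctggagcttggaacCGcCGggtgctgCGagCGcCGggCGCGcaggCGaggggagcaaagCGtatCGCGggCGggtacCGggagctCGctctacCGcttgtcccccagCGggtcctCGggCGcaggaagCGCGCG

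Of the 21 members with several probe sets, 7 had every probe set called in the same direction, 10 had some called and some not, and none had probe sets called in opposite directions. Such counts were not obtained over all genes, so they cannot be set against a background. Over all member probe sets 37 of 76 passed the test, against 38.8% of the 31042 on the array. Whether the brightest and the second probe set of a gene gave different differences was tested in each of the 21 genes with a two-sided exact permutation test over the 8 arrays. In 8 of them, Tgfb2, Bmp2, Bmp5, Bmp6, Fstl1, Smad4, Smad6 and Id4, the p was 0.0286, the smallest that 70 splits of 8 arrays allow, and its adjusted value over the 21 genes was 0.075. No gene passed at 0.05 after adjustment, and with this smallest p a single gene among 21 could not have. Even with 8 genes at that p none did, so the outcome does not show that the probe sets of a gene agree.

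**Figure D3:**
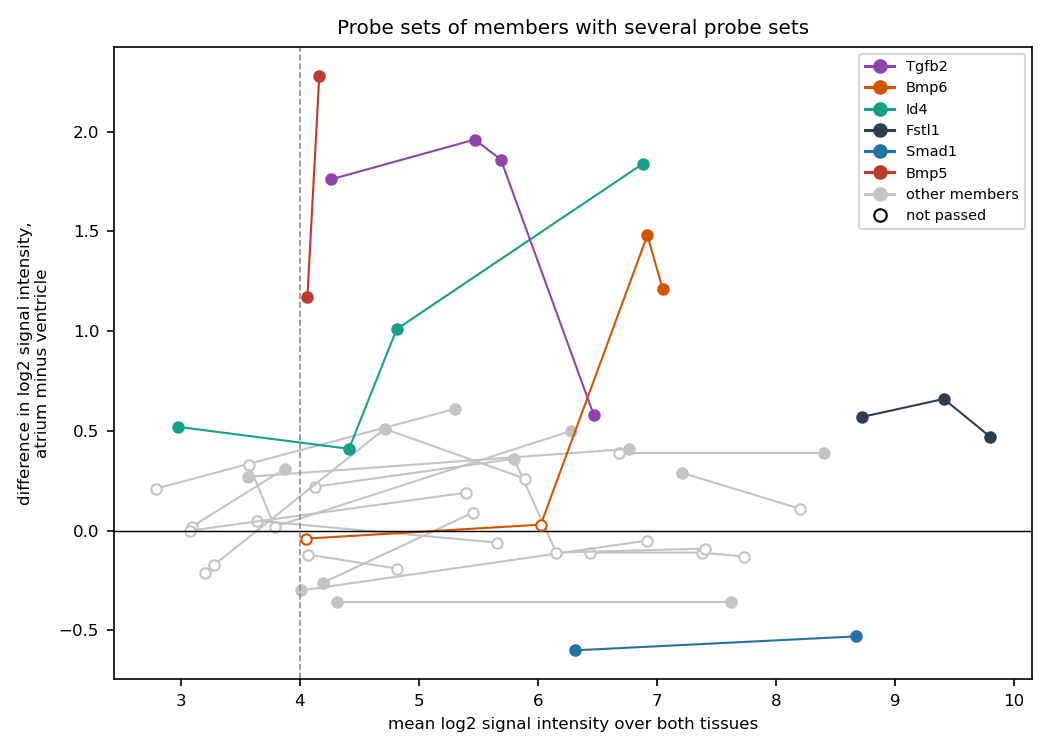
Difference in log2 signal intensity, atrium minus ventricle, against the mean log2 intensity over both tissues for each probe set of the members with several, joined by gene, with those that did not pass the test open. The 2 probe sets of Tgfb2 named through Additional file 1 are included. The 4 Tgfb2 points run from 0.58 to 1.96, and of the 4 Bmp6 points 2 lie above 1 and 2 near 0.

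Other genes of the pathway were taken from a list of 86, of which 68 were measured. Of these, 25 (36.8%) were higher in the atria and 12 (17.6%) lower, and 31 did not pass, with a median difference of 0.09. The share of all 14217 genes was 22.5% in each direction. At the study thresholds 8 (11.8%) passed, against 5.89% of all genes, 7 of them higher in the atria and 1 lower. The list was also chosen with earlier results of these data known, so its shares are not independent of them. By role, 4 of 9 other receptors and co-receptors, 7 of 20 extracellular modulators, 7 of 17 intracellular regulators and 6 of 13 known targets were higher, and 2, 4, 1 and 3 were lower, respectively. Of 9 other ligands, 1, the procollagen protease Bmp1, was higher and 2, Gdf11 and Gdf6, were lower, the latter with both means under 4 (named after their values had been seen).

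Hepcidin (Hamp), the hormone that limits iron export and a target of BMP and SMAD signaling, had the largest difference of the list. It read 8.97, 8.51, 9.19 and 9.07 in the atria and 5.16, 5.88, 5.27 and 5.46 in the ventricles. No pool of one tissue came near the other, with a fold of 11.3 (difference 3.49, standard error 0.17, adjusted p = 1.4e-07 from limma). Rgmb, a BMP co-receptor of the repulsive guidance family, was 2.05 fold and neogenin (Neo1), the receptor of that family, 2.25 fold higher in the atria. Hemojuvelin (Hjv), the co-receptor of this family that acts on hepcidin, read 10.69, 10.63, 10.63 and 10.26 in the atria and 9.79, 9.83, 9.67 and 9.64 in the ventricles, a fold of 1.76. Rgma, another member of the family, was lower in the atria by -0.76 (adjusted p = 7.1e-05). Hjv and Rgma did not pass the study thresholds and were singled out after their values had been seen. In atrial replicate 4 the levels of Hjv, Neo1, Rgmb and Rgma were the lowest of the atrial pools.

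Fibromodulin (Fmod) and biglycan (Bgn), small matrix proteoglycans that bind TGFβ, were 6.18 and 1.82 fold higher in the atria. Fmod read 8.06, 7.66, 7.94 and 7.59 in the atria and 4.96, 5.24, 4.92 and 5.61 in the ventricles. The BMP antagonist Nbl1 was 1.89 fold and the TGFβ target connective tissue growth factor (Ccn2) 2.20 fold higher in the atria. The known targets did not all go this way, as 6 were higher and Acta2, Msx1 and Msx2 were lower in the atria. These lower targets did not pass the study thresholds and were named after their values had been seen. Pcsk6, a proprotein convertase that processes ligands of the family, was the 1 gene of the list lower in the atria at the study thresholds, by 2.33 fold (difference -1.22, adjusted p = 3.4e-07 from limma). Acvrl1, an endothelial type I receptor, was lower in the atria by -0.72 (adjusted p = 3.1e-05), short of the study fold, and was also singled out after its value had been seen.

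**Figure D4:**
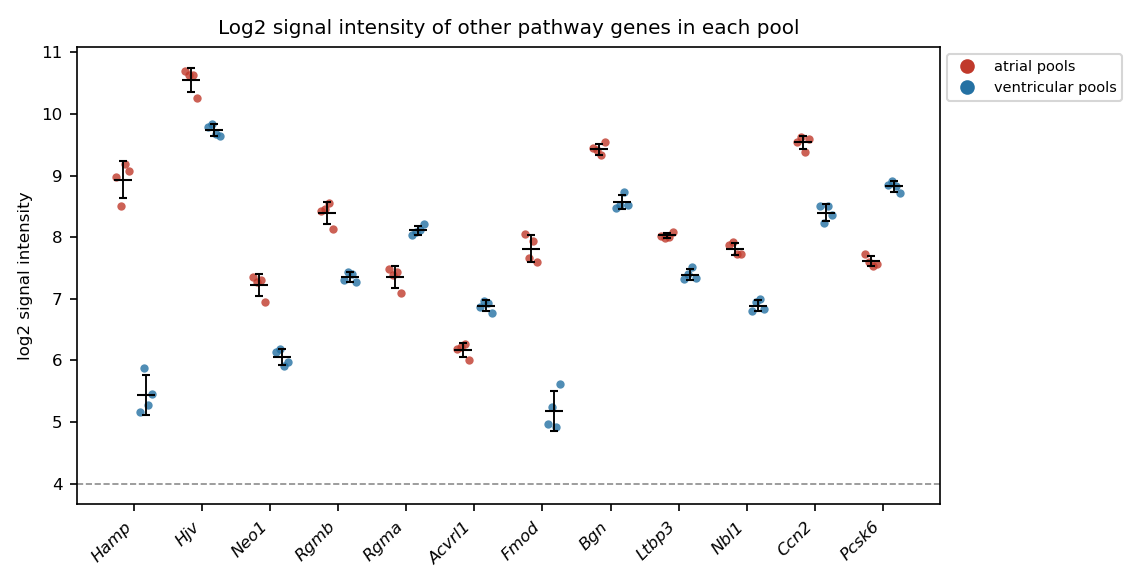
Log2 signal intensity of 12 other pathway genes in each atrial pool (red) and ventricular pool (blue), with bars for the mean and the SD of 4 pools. The dashed line marks a log2 of 4. Hamp and Fmod show the widest gaps, at 3.49 and 2.63, and Rgma, Acvrl1 and Pcsk6 are higher in the ventricles.

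Marker genes of other cell types also differed between the tissues. Of 8 endothelial markers, 7 were lower in the atria, and their summed linear intensity was 2377 to 2476 in the atria and 3697 to 4185 in the ventricles. All 9 markers of smooth muscle and pericytes were lower, with sums of 1377 to 1498 and 2742 to 2804. Members called lower in the atria share the direction of these sums by their call, so the match carries no information. The 14 members called higher went the other way. On the other side, all 5 genes used as markers of endocardium and veins, Npr3, Vwf, Nr2f2, Plvap and Cgnl1, were higher in the atria. Their sums were 1981 to 2472 against 601 to 655. Of 7 mesothelial and epicardial markers, 6 were higher and Wt1 was lower, with sums of 1105 to 2095 against 186 to 208. The paper lists Nr2f2 as a transcription factor more abundant in the atria, and which cells expressed each marker was not tested. The endocardial and mesothelial lists were highest in atrial replicate 1. Of the 4 members higher in the atria at the study thresholds, Bmp6 (8.04) and Ltbp1 (8.18) were also highest there. Bmp5 (5.35) and Id4 (7.81) were not, and reached 5.48 and 8.16 in other atrial pools. The second brightest Id4 probe set was highest in replicate 1 (5.78). Further members, Tgfb3, Bmp4, Smad6 and Smad7 among them, were highest there too. Adipocyte markers summed to 1429 to 4148 in the atria, highest in replicate 4, and 2136 to 2376 in the ventricles, where Adipoq, Plin1 and Cidec had means under 4. Of these 5 markers Adipoq, Plin1 and Cidec were higher in the atria, by at least 9.41, 7.62 and 7.08 fold, while Fabp4, which read 10.38 to 11.59 and makes up most of the sum, and Lep did not pass the test. Leukocyte markers summed to 414 to 501 and 388 to 440. Of these 7, Cd163, Cd14 and Mrc1 were higher in the atria, Ptprc was lower, by -0.78, and 3 did not pass. Markers of Schwann cells and neurons summed to 107 to 170 and 86 to 101. Of these 4, S100b, Uchl1 and Prph were higher in the atria and Sox10 was lower, by -0.59. S100b differed most, by 2.06, and was highest in atrial replicate 4. The part of any of these cell types in the members' differences was not tested.

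**Figure D5:**
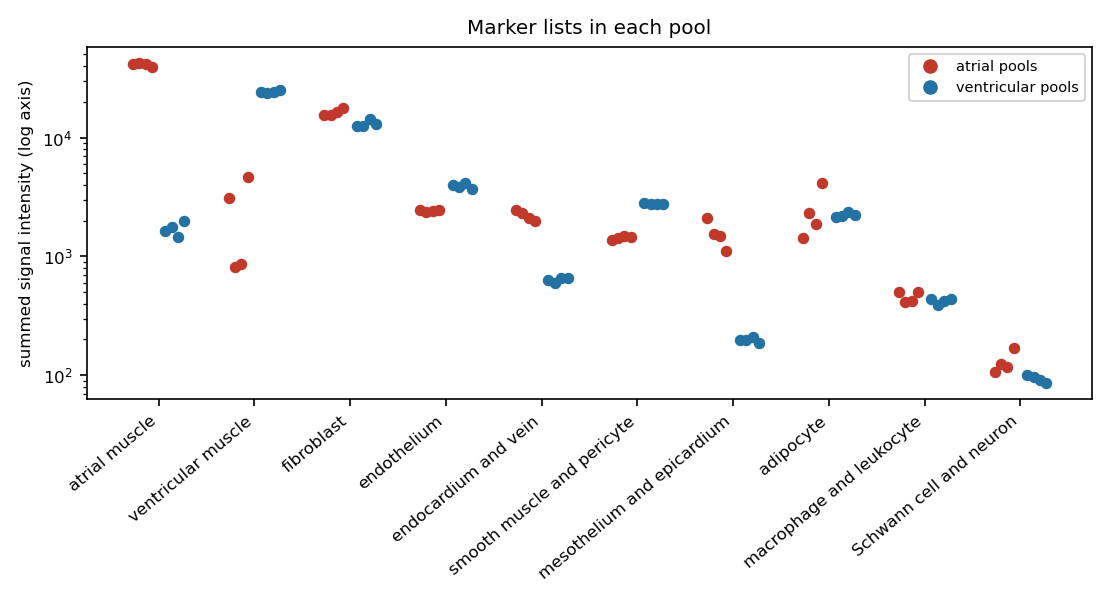
Summed linear signal intensity, on a log axis, of each marker list in the 4 atrial pools (red) and the 4 ventricular pools (blue). The ventricular muscle list is higher in atrial replicates 1 and 4 (3094 and 4682) than in 2 and 3, and the mesothelial and endocardial lists are higher in every atrial pool than in any ventricular pool.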

How the data were processed

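Biotin-labeled cRNA from 10 μg of total RNA of 4 atrial and 4 ventricular pools was hybridized to Affymetrix GeneChip Rat Genome arrays, 1 array per pool. The authors summarized the intensities by Robust Multiple-Array Averaging (RMA, version not stated), with background adjustment and quantile normalization, and deposited log2 signal intensities for 31042 probe sets, ranging from 1.9 to 13.77, with array medians of 4.8 or 4.81. Detection calls were not analysed here. The number of arrays limits the precision.

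The values were used as deposited. The platform annotation gave 1 symbol to 20826 probe sets, several to 436 and none to 9780. For 20758 the gene ID was found in RefSeq (GRCr8) and the symbol was taken from there. RefSeq also gave the promoter sequences. The tissues were compared with limma 3.58.1 in R 4.3.3 over all probe sets, without pairing of pools, as no pairing is stated. The paper names SAM, a permutation method, which was not run. The fit was tested on simulated data. Python 3.11.15 with matplotlib 3.10.9 drew the figures.

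The members and lists were chosen with earlier results of these data known. Values per pool are given for members past the study thresholds or differing by at least 0.5 at an adjusted p under 0.05, and for at least 1 member of each role. Other pathway genes past the study thresholds are named. Alternatives were a trended and robust fit, a replicate block, 3 scalings between arrays, removal of the dimmest 40% of probe sets, each array and atrial replicates 1 and 4 left out, other fold criteria, and the second or the mean of all probe sets of a gene.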

Additional observations from a re-analysis of the deposited data

Results flagged for a closer look

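In each member the highest and lowest of the 4 pools of a tissue were compared with the others by Dixon's criterion, and 4 of 88 groups held a pool that stood apart. Chance alone gives about 1 in 20 such groups. Smad6 read 6.41 in atrial replicate 1 against 5.88 to 5.92 in the other atrial pools. Fstl1 read 9.80 in ventricular replicate 3 against 9.47 to 9.51 in the others. Myostatin (Mstn) read 3.44 in ventricular replicate 1 against 2.96 to 3.00, all near the low end of the intensities. Acvr2a read 5.78 in ventricular replicate 2 against 5.90 to 5.93.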

How the results depend on the processing

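Under 15 settings besides the choice of probe set, 19 of the 21 called members kept their direction and their call wherever they were measured. The exceptions were Fst and, without atrial replicates 1 and 4, Id2. Of the 23 members that did not pass, 5, Acvr1, Acvr2a, Gdf15, Ltbp2 and Skil, passed under at least 1 setting. With each array left out in turn, 13 to 14 members were higher, 7 to 10 lower and 5 to 8 passed the study thresholds. The highest counts of lower members (10) and of members past the study thresholds (8) came without atrial replicate 4. Over all genes 2828 to 3412 were higher and 2682 to 3585 lower, both also highest without that replicate. At the brightest probe sets a fold of at least 3 left 2 members, Bmp5 and Id4, at the study p, and a fold of at least 1.5 gave 9. Tgfb2 reached a fold of at least 3 at the study p only at its other probe sets. With the second probe set of each gene, 12 members were higher and 9 lower. Bmp2, Fst, Smad7 and Id2 lost their calls, Bmpr2, Smad4 and Smad6 gained one, and Inhba differed by -0.26 (adjusted p = 0.036 from limma) in place of 0.09. The 12 other pathway genes given with values (Hamp, Fmod, Neo1, Rgmb, Ccn2, Nbl1, Bgn, Pcsk6, Hjv, Acvrl1, Rgma and Ltbp3) kept their direction and call under every setting run. The scalings moved the median difference between the tissues over all probe sets by at most 0.047. Pools with the same number in the labels had residual correlations from -0.188 to 0.155. Of the 4 atrial pools, 2 correlated best with the ventricular pool of their own number. Whether pools of the same number share rats is not known, and these correlations cannot decide it. With the replicate number as a block, 13 members were higher, 8 lower and 5 past the study thresholds, with Fst lost (adjusted p = 0.052) and Acvr2a gained (0.041). No depth can be given for an array, and the size of a difference is not set where both means are under 4.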
